A study of Mus musculus with 3 samples.

Results

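10 transcripts were followed here across single cells of mouse small-intestinal organoids: the immediate early genes Fos, Fosb, Jun, Junb, Jund, Egr1, Atf3 and Ier2 and the heat shock genes Hspa1a and Hspa1b. These 10 genes were taken by their symbols from the 32285 genes in the deposited tables, and all 10 were detected in every library. Organoids are epithelial cultures grown from crypts in a gel, and these were taken at passage 3, day 6, treated with trypsin, filtered and sorted before droplet RNA sequencing. All mice were C57BL/6, were 7 to 8 weeks old and received 2 doses of tamoxifen at 2 mg, the WT mice included. The WT organoids came 21 days after tamoxifen. The LApc organoids (Lgr5-CreERT2;Apc fl/fl) came 29 days after it, and the LApcL organoids (Lgr5-CreERT2;Apc fl/fl with Lef1 fl/fl in addition) came 21 days after it. The Lgr5 promoter drives the recombinase in stem cells, so that recombination in these mice started there, and the labels do not say how many mice gave each culture. Each genotype was 1 library. No difference between genotypes therefore has a replicate check, no p-value is given, and every interval is an exact 95% interval for counting error alone. Genotype, culture, library and, for LApc, the day of harvest cannot be told apart.

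The proteins of the Fos and Jun families pair to form the transcription factor AP-1, and Atf3 and Egr1 are further transcription factors that cells make within minutes of a growth factor, stretch or injury, before any new protein is needed. Their messages are short-lived, and their promoters carry sites for factors that are already present in the resting cell, such as the serum response factor and CREB. Hspa1a and Hspa1b encode the inducible Hsp70 chaperones, which refold damaged proteins and are switched on through heat shock factor. Both groups are also known to be induced when solid tissue is taken apart into single cells.

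The promoters of Fos and of the 2 Hsp70 genes are shown so that the 2 groups of genes can be compared in sequence and the near copies Hspa1a and Hspa1b seen side by side. They are the 250 bases before the RefSeq start site in GRCm38.p6, on the sense strand, and RefSeq entries were matched for 8 of the 10 genes (all but Egr1 and Ier2). The Fos promoter lies at chr12:85473640-85473889 on the plus strand, that of Hspa1a at chr17:34972157-34972406 on the minus strand and that of Hspa1b at chr17:34959239-34959488 on the minus strand. Capitals mark TGACG (the core of a CREB site) and TATAAA in Fos, and GAANNTTC (a pair of inverted heat shock factor units) and a CCAAT box, which reads on the opposite strand, in the Hsp70 genes.
Fos: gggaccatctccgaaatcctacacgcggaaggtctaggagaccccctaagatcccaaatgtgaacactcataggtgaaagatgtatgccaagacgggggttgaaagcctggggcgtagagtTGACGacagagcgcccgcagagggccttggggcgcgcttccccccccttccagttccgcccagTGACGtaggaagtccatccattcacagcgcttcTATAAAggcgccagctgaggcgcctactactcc
Hspa1a: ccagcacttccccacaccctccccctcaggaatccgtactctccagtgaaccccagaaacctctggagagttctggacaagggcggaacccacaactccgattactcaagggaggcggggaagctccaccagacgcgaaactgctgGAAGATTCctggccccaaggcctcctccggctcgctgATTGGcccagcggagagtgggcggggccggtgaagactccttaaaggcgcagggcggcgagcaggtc
Hspa1b: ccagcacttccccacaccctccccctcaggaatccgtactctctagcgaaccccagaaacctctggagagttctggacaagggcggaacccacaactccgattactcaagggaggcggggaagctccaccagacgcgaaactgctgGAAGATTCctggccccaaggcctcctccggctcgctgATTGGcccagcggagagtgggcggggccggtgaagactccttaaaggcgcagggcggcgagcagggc
The Hsp70 promoters matched at 247 of 250 positions, with GAANNTTC 104 to 97 bases and CCAAT 67 to 63 bases before the start in both. In Fos, TGACG stood 129 to 125 and 66 to 62 bases before the start and TATAAA 33 to 28 bases before it. Both strands were searched. TGACG was also found before Fosb, Junb and Atf3, GAANNTTC before Jun, and CCAAT before Jun and Junb. The Jund and Atf3 windows (chr8:70697489-70697738 and chr1:191183334-191183583) do not adjoin the 5′ gene ends in GENCODE vM21 (70698949 and 191218039). Whether these windows are the promoters used in these cells was not tested. Among 32851 promoters of the same length, TGACG occurred in 17.8%, GAANNTTC in 6.69%, TATAAA in 12.4% and CCAAT in 33.8%, so these letters are common and a match is a description only. The full CREB site TGACGTCA (1.55% of promoters, and itself a holder of TGACG), the AP-1 site TGANTCA (6.75%) and the CArG box of the serum response factor (1.47%) were in none of the 8 windows. Bases further than 250 before the start were not searched, so a gene without a match here may still hold the site upstream.

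Before any comparison the cell barcodes had to be divided, since the same barcodes recurred across libraries. WT held 11411 barcodes, LApc 10706 and LApcL 12068, and 3195 of them were present in all 3 libraries. These shared barcodes carried endothelial and not epithelial transcripts, against the organoid label: 6 endothelial markers summed to 4213 to 4218 UMIs per 1000000 (CPM) and 6 epithelial markers to 15.9 to 49.7 CPM. A UMI is a tag that stands for 1 captured RNA molecule. Averaged over genes, the counts of shared barcodes differed between libraries by no more than sampling noise (mean chi-square per gene 0.856 to 0.932), although some epithelial transcripts differed by more, such as Krt8 in LApc against WT (log2 1.95, 1.39 to 2.54), and the shared barcodes were counted as 1 sample, not 3. The second set, called deep here, holds barcodes of 1 library only with at least 10000 UMIs and at most 20% mitochondrial UMIs. It had 1208 WT, 2161 LApc and 1931 LApcL barcodes, with a median of 38073.5, 34377 and 32584 UMIs against 1483 to 2176 in the shared barcodes. Deep barcodes matched their label, with the epithelial markers at 3742 to 6910 CPM and the endothelial markers at 4.81 to 21.6 CPM. Lef1 measured 0.961, 72.0 and 47.8 CPM in the deep barcodes of WT, LApc and LApcL, and Apc 20.0, 88.5 and 95.4 CPM, but 3′ tags need not lie in the deleted part and so check neither deletion. The mitochondrial share was higher in WT (median 10.5%) than in LApc (5.64%) or LApcL (6.39%), and 8 enterocyte markers summed to 21259 CPM in WT against 3.48 in LApc and 6.11 in LApcL. The part of either difference in the values below was not tested, beyond the alternatives named.

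In the organoid epithelium the 8 immediate early genes ranged from 101 to 1287 CPM over the genotypes, with Fosb lowest, and the Hsp70 pair from 6.07 to 43.8 CPM. Fos, the founding partner of Jun in AP-1, measured 407 CPM in WT (402 to 413), 670 in LApc (665 to 675) and 582 in LApcL (577 to 587). Fosb, its paralog, measured 101 CPM (97.9 to 103), 170 (167 to 172) and 161 (159 to 164). WT was thus the lowest library for both Fos genes, and LApc the highest, by 1.64-fold and 1.69-fold over WT. LApcL lay slightly under LApc, by a log2 ratio of -0.20 (-0.22 to -0.19) for Fos and -0.07 (-0.11 to -0.04) for Fosb.

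Jun, which joins Fos proteins and can also bind DNA as a pair with itself, went the other way. It measured 1287 CPM in WT (1276 to 1297), 1152 in LApc (1145 to 1159) and 766 in LApcL (760 to 772). The Jun level was therefore lower in LApc than in WT by a log2 ratio of -0.16 (-0.17 to -0.15), the only one of the 10 genes with a ratio under 0 when divided by all UMIs, and lower again in LApcL than in LApc by -0.59 (-0.60 to -0.57). Junb, the Jun relative that is often a weaker activator, measured 429 CPM in WT (423 to 435), 591 in LApc (586 to 596) and 381 in LApcL (377 to 385). LApc was the highest library for Junb and LApcL the lowest, with a log2 ratio of -0.63 between them (-0.65 to -0.61). Jund, the least inducible Jun gene, varied least, at 594, 643 and 564 CPM.

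Egr1, a zinc finger factor induced by serum, measured 479 CPM in WT (473 to 485), 720 in LApc (715 to 726) and 652 in LApcL (646 to 657), the same order as Fos. Atf3, a stress-induced relative of CREB that dimerizes with Jun, measured 829 CPM (821 to 837), 1066 (1059 to 1073) and 633 (627 to 638). Its log2 ratio between LApcL and LApc, -0.75 (-0.77 to -0.74), was the lowest of the 10 genes. Ier2, a nuclear protein made early after stimulation, measured 395, 542 and 392 CPM, and its WT and LApcL intervals (389 to 400 and 388 to 396) overlapped.

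The Hsp70 genes showed the widest differences between genotypes at the lowest levels. Hspa1a measured 6.07 CPM in WT (5.40 to 6.81; 297 UMIs), 17.2 in LApc (16.3 to 18.1; 1561 UMIs) and 26.6 in LApcL (25.5 to 27.8; 2141 UMIs). Hspa1b measured 7.71 CPM in WT (6.95 to 8.53; 377 UMIs), 43.3 in LApc (42.0 to 44.7; 3937 UMIs) and 43.8 in LApcL (42.4 to 45.3; 3527 UMIs). Against WT, LApc was 2.83-fold higher for Hspa1a (log2 1.50, 1.32 to 1.68) and 5.62-fold higher for Hspa1b (log2 2.49, 2.34 to 2.65). The Hspa1a difference depended on depth. In deep barcodes of 10000 to 20000 UMIs it was not detectable, at 9.85 CPM in WT (5.74 to 15.8; 17 UMIs) and 8.97 in LApc (6.46 to 12.1; 42 UMIs), whereas at 20000 to 50000 UMIs the levels were 6.12 and 14.0 CPM and over 50000 UMIs 5.59 and 20.9 CPM. Hspa1b was higher in LApc in each of these bins, at 28.0, 34.8 and 52.7 CPM against 8.11, 7.83 and 7.43 CPM. Between LApcL and LApc the pair parted: Hspa1a was 1.55-fold higher in LApcL (log2 0.63, 0.54 to 0.73), while the Hspa1b ratio was 0.02 on the log2 scale (-0.05 to 0.08). In UMIs, Hspa1b exceeded Hspa1a 1.27-fold in WT (1.09 to 1.48), 2.52-fold in LApc (2.38 to 2.68) and 1.65-fold in LApcL (1.56 to 1.74).

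The split between these 2 genes is uncertain, because they are near copies. They lie on chromosome 17, minus strand (GRCm38, GENCODE vM21), Hspa1a at 34969190-34972156 and Hspa1b at 34956436-34959238, each in 1 exon. Their coding parts were 99.5% identical over 1929 aligned positions, and 70.8% of the 91-base windows of the Hspa1a coding part occurred unchanged in Hspa1b. The parts after the stop codon (810 and 643 bases) were only 52.9% identical and shared no such window, so that a 3′ read there can be assigned. How many UMIs came from each part was not measured. How reads that match both genes were counted was not checked either, so the levels of both genes may be affected.

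**Figure D1:**
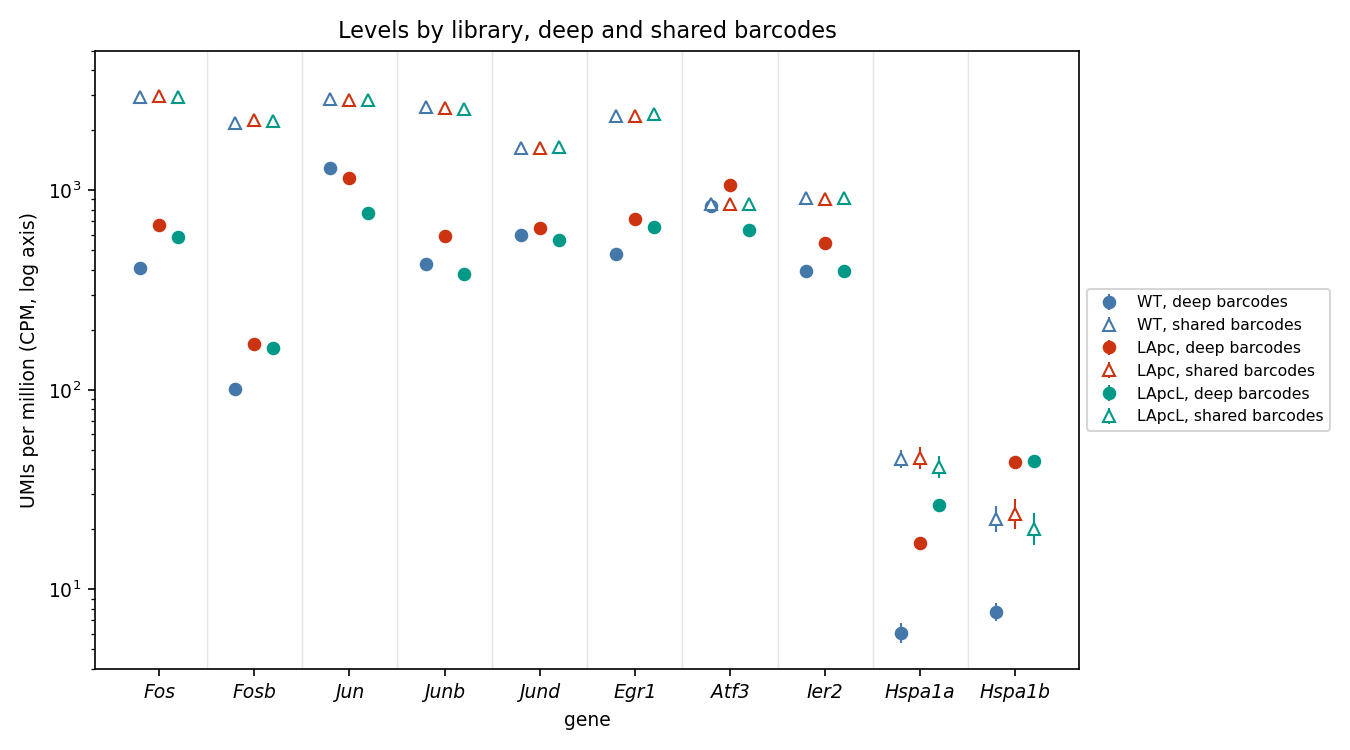
Level of each gene in UMIs per 1000000 (CPM, log axis) in WT, LApc and LApcL, filled circles for deep barcodes and open triangles for barcodes shared by all 3 libraries, with exact 95% Poisson intervals. The shared triangles of 1 gene coincide or nearly so, while the deep circles spread by up to 5.68-fold (Hspa1b), and Fosb has a wide gap between the sets (101 to 170 against 2179 to 2239 CPM).

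Read against all genes, the immediate early genes lay near the middle between LApc and WT. Of 9068 genes with at least 10 CPM in LApc or WT, 25.8% were at least 2-fold higher in LApc and 10.2% at least 2-fold lower, and 2 of the 10 genes (Hspa1a and Hspa1b) were at least 2-fold higher and 0 lower. The median log2 ratio was 0.53 over the 10 genes and 0.52 over all genes. Relative to that all-gene median, Fos (0.72), Fosb (0.75) and Egr1 (0.59) lay slightly above, Junb (0.46), Ier2 (0.46) and Atf3 (0.36) slightly below, and Jund (0.12) and Jun (-0.16) further below. Scaled by median-of-ratios size factors, which moved the all-gene median from 0.52 to 0.11, the gene median was 0.12, 15.3% of all genes were at least 2-fold higher and 15.0% lower, and the signs of Jund (-0.29) and Atf3 (-0.045) turned.

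Between LApcL and LApc, which share the LApc library with the comparison above, fewer genes passed 2-fold. Of 8739 genes, 1.46% were at least 2-fold higher in LApcL and 3.48% at least 2-fold lower, and 0 of the 10 genes passed either limit. The median log2 ratio was -0.20 over the 10 genes against 0.05 over all genes. All 8 immediate early genes were lower in LApcL, whereas 57.5% of all genes were higher, except that Fosb came to 0.0012 when every barcode weighed the same and that Fosb (0.20), Jun (0.18) and Egr1 (0.039) were above 0 in the proliferating-like clusters alone. Egr1 stayed slightly above 0 when a further LApcL cluster, led by Slfn9, was added to those clusters. The order of the Fos genes and Egr1 also turned in some bins: at 10000 to 20000 UMIs Fos measured 491 CPM in LApcL and 470 in LApc, Fosb 152 and 144, and Egr1 644 and 625, Fosb measured 168 and 161 CPM at 20000 to 50000 UMIs, and it measured 157 and 140 CPM in barcodes with under 5% mitochondrial UMIs. Atf3, Junb, Jun and Ier2 (-0.47) lay furthest below.

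**Figure D2:**
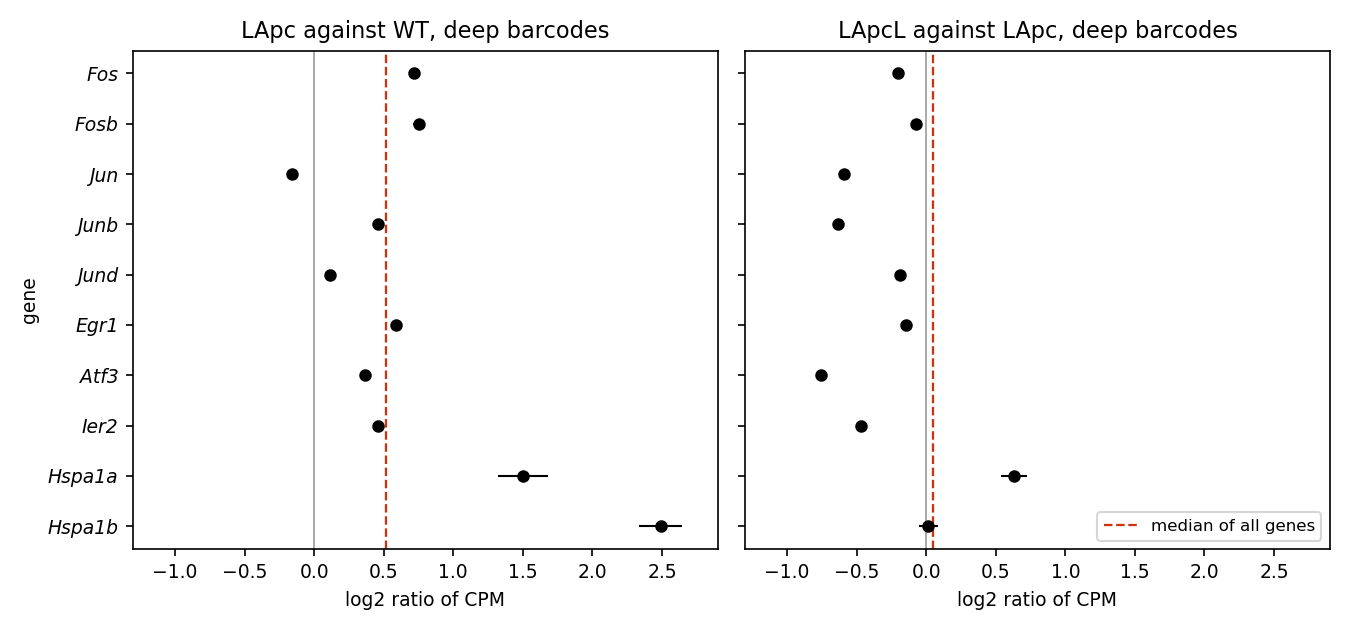
Log2 ratio of CPM of LApc against WT (left) and LApcL against LApc (right) in deep barcodes for the 10 genes, with 95% intervals for counting error and the median of all genes as a dashed line. Hspa1a and Hspa1b (1.50 and 2.49) lie far to the right of the line in LApc against WT, the other 8 genes lie around or below it, and under median-of-ratios scaling Jund and Atf3 turn to -0.29 and -0.045 in that panel.

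These ratios depended on which epithelial cells were counted. Among the few WT deep barcodes without an enterocyte marker UMI at 10000 UMIs (61, against 2125 in LApc), Fos was at a log2 ratio of 0.08 between LApc and WT, Jun at 0.15 and Atf3 at 1.49, in place of 0.72, -0.16 and 0.36. In the proliferating-like clusters alone (187 WT, 432 LApc and 146 LApcL barcodes, chosen after the values were seen), Fos was at 1.08, Hspa1a at 3.05 and Hspa1b at 3.47. These clusters do not hold the same cells: the one of LApcL was led by the mitotic genes Cenpf, Hmmr and Aspm, while its cells with DNA replication genes formed an unnamed cluster led by Slfn9, Clspn and Uhrf1 (323 barcodes; Jun 513 CPM). Between LApcL and LApc, Jun and Atf3 came to log2 ratios of 0.18 and -0.037 in the proliferating-like clusters alone, and to -0.25 and -0.41 with the Slfn9 cluster added to those of LApcL. With that cluster added, Hspa1a came to 0.079 and Hspa1b to -0.32, in place of 0.63 and 0.02 over all deep barcodes. Adding 10 CPM to both sides brought Hspa1a between LApc and WT to 0.76 and Hspa1b to 1.59.

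The share of barcodes with a transcript was compared at equal depth, with every deep barcode thinned at random to 10000 UMIs and none left out. Pecam1, an endothelial gene that epithelium should lack, then had a UMI in 0.911%, 1.71% and 0.777% of WT, LApc and LApcL barcodes and serves as the background, although Cdh5, another endothelial gene, reached 3.61% in LApc (0.0828% in WT and 0.155% in LApcL). Jun (97.5%, 96.9% and 96.4%) and Jund (97.6%, 98.0% and 97.0%) were in nearly all barcodes of every genotype. Fos was in 84.6%, 88.8% and 89.5%, Egr1 in 89.9%, 95.2% and 95.2%, Junb in 87.5% of WT, 2053 of 2161 LApc and 90.7% of LApcL barcodes, Atf3 in 85.6%, 92.6% and 86.5% and Ier2 in 90.6%, 95.5% and 91.9%. Fosb was the immediate early gene found least often, in 46.9%, 58.8% and 60.0%. Apart from Fosb in WT, each immediate early transcript was thus in a majority of epithelial barcodes of each library.

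Hsp70 transcripts were found less widely, at shares above Pecam1. At 10000 UMIs Hspa1a was in 5.63% of WT barcodes (4.40 to 7.08, exact Clopper-Pearson), 8.42% of LApc (7.28 to 9.67) and 11.0% of LApcL (9.62 to 12.5). Hspa1b was in 6.37% (5.06 to 7.90), 23.0% (21.2 to 24.8) and 25.0% (23.0 to 27.0). At full depth Hspa1a was in 17.7%, 21.2% and 25.3%, Hspa1b in 20.9%, 48.5% and 52.4%, Fosb in 75.0%, 81.3% and 81.0%, and each of the other immediate early genes in 93.6% to 99.9% of barcodes.

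The spread over deep barcodes at 10000 UMIs was wide for most of the inducible genes and nearest to that of genes of like mean for Jund. The median barcode held 3, 4 and 4 Fos UMIs in WT, LApc and LApcL, and the highest 35, 59 and 42. The variance divided by the mean was 5.59, 6.62 and 5.22 for Fos, against medians of 2.03, 2.50 and 1.91 over genes of like mean. Atf3 was the widest of the 10 in each library at 8.73, 11.3 and 8.28. Jund, at 2.58, 2.50 and 2.44, lay near the 2.26 and 2.45 of genes of its level in WT and LApc and above their 1.83 in LApcL. Ier2 gave 3.15, 3.29 and 2.31, against 2.04, 2.15 and 1.55 for genes of like mean, and so lay under Jund in LApcL. Hspa1a gave 1.41, 3.85 and 7.43, against 1.06 to 1.07 for genes of like mean, with at most 4, 19 and 39 UMIs in 1 barcode. Without the 1% of barcodes with the most UMIs of the gene, the log2 ratio of Hspa1a was 1.26 between LApc and WT and 0.70 between LApcL and LApc.

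As a description, over deep barcodes at equal depth, which share library and base composition, the 28 pairs of immediate early genes had a median Pearson r of 0.375 in WT (n = 1208), 0.339 in LApc (n = 2161) and 0.356 in LApcL (n = 1931), on log counts. Jun and Atf3 were the closest pair in WT (0.650) and LApc (0.522), and Fos and Fosb in LApcL (0.502). Hspa1a and Hspa1b correlated at 0.158, 0.393 and 0.414, under the same uncertainty about reads of near copies. Pairs of 1 immediate early and 1 Hsp70 gene lay between -0.01 and 0.19. Among 1934 genes with at least 50 CPM in every library, the 5 most like Fos by mean r over the 3 libraries were Egr1 (0.493), Fosb (0.462), Ier2 (0.386), Junb (0.379) and Hbegf (0.374), an EGF receptor ligand. For Hspa1a the 5 highest were Nfkbia (0.144), Dusp1 (0.128), Fos (0.120), Gadd45b (0.116) and 2200002D01Rik (0.106), too weak in counts this sparse to be a finding.

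Levels also differed between kinds of epithelial cell. Clusters were made per library and named only from lists of marker genes. The 10 genes and the related gene lists were left out of the clustering, and the values are descriptions of 1 library each. In WT, Jun and Atf3 were highest in the cluster led by Eno3, Cltrn and H1fx (311 barcodes; 1725 and 1243 CPM) and in enterocyte-like cells (184; 1673 and 1218 CPM), and lowest in the stem-like cluster (231; 746 and 293 CPM). Fos had another pattern, with 591 CPM in stem-like, 308 in proliferating-like (187) and 828 in goblet-like cells (25), and its lowest WT level of 236 CPM in the cluster led by Ctrb1, Sult6b2 and Acta1 (192). Egr1 peaked in enteroendocrine-like cells (37; 1035 CPM).

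In LApc, a cluster led by Npy, Pnliprp2 and Tpsb2 (334 barcodes) held the highest Jun and Atf3 (2139 and 1787 CPM) with little Hsp70 (Hspa1a 4.50 and Hspa1b 15.7 CPM). Leaving that cluster out moved the log2 ratio of LApcL against LApc from -0.59 to -0.39 for Jun and from -0.75 to -0.60 for Atf3. A second cluster, led by Ms4a10, Serpinb1a and Reg3b (312), held the highest LApc levels of Fos (951 CPM), Hspa1a (35.0) and Hspa1b (83.3). In LApcL the Hsp70 genes were highest in the cluster led by AA467197, Ly6d and Hspb1 (274; Hspa1a 62.5 and Hspa1b 82.6 CPM), where Fos was also highest at 802 CPM, and Egr1 was highest in Paneth-like cells (85; 1556 CPM). Between proliferating-like clusters, Hspa1b measured 4.08, 45.2 and 44.8 CPM for WT, LApc and LApcL (31.7 CPM in the LApcL cluster led by Slfn9), and between stem-like clusters 10.4 in WT and 37.0 in LApc. Over clusters, the highest level of a gene was a median of 3.11 times its lowest in WT, 2.78 times in LApc and 2.45 times in LApcL.

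**Figure D3:**
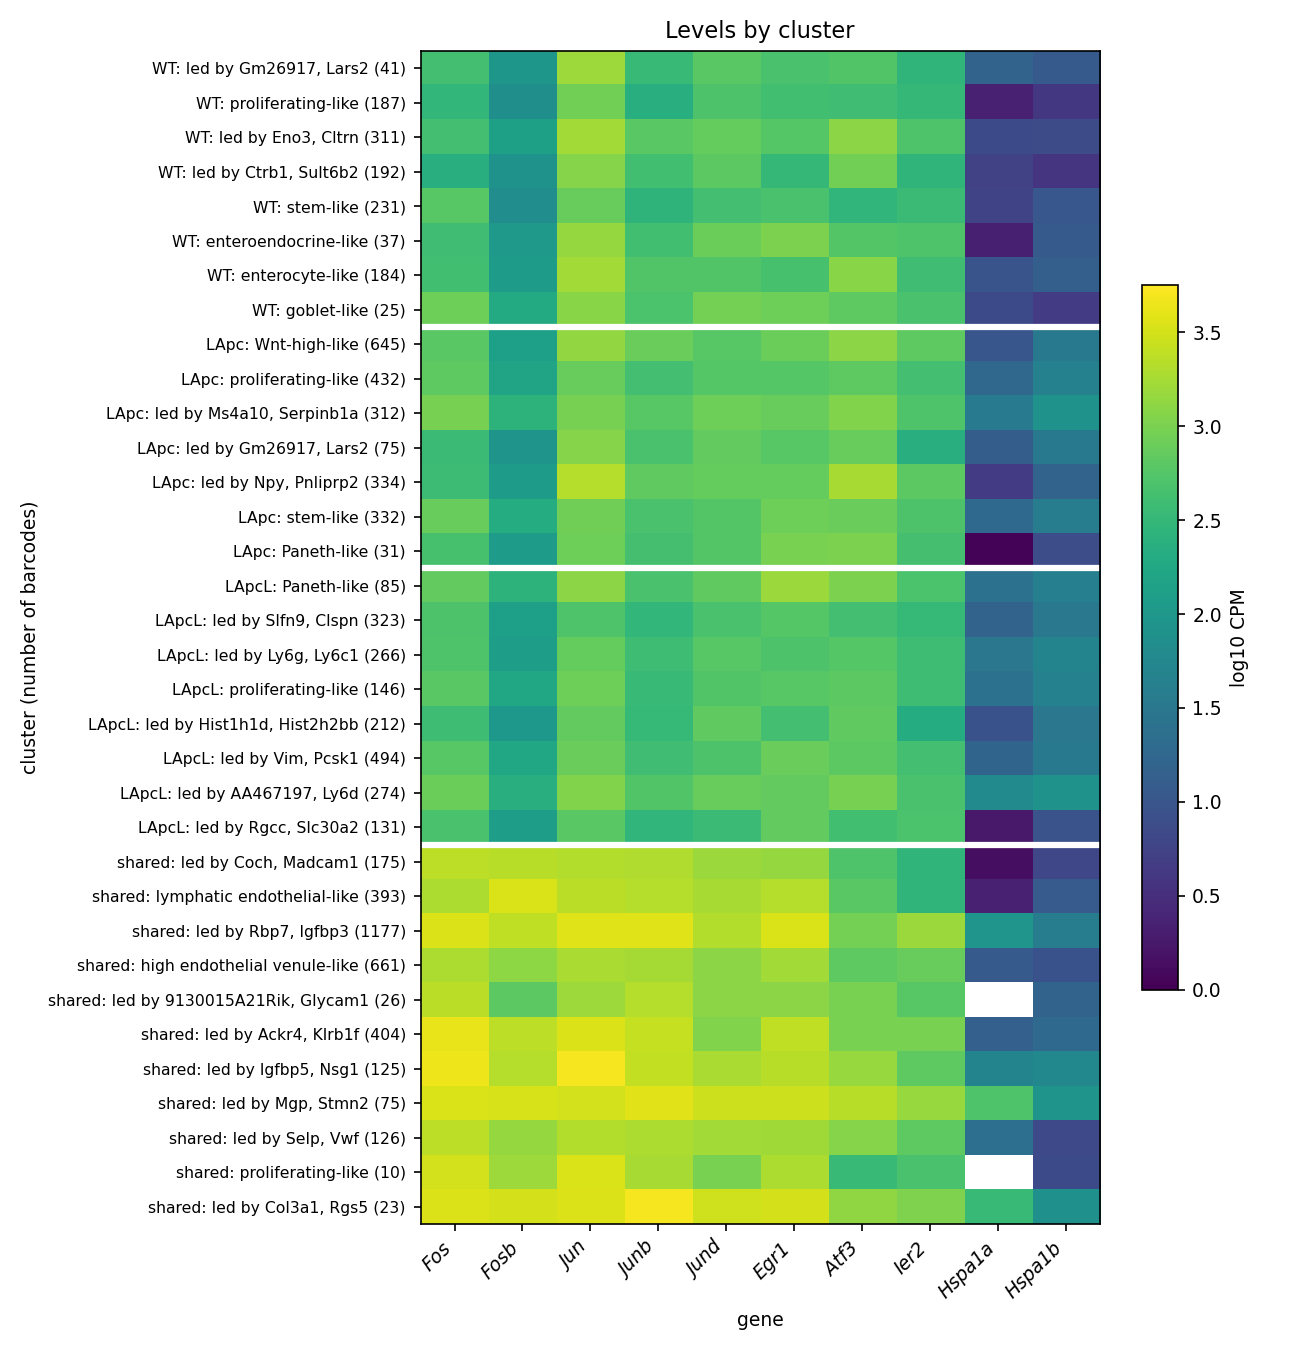
Log10 CPM of the 10 genes (columns) in the clusters of deep barcodes of WT, LApc and LApcL and of the shared barcodes (rows, with barcode counts, white for 0 UMIs). Each of the shared clusters is brighter than each of the deep clusters for Fos and Fosb, and Hspa1a stands out in the shared cluster led by Mgp, Stmn2 and Gkn3 (530 CPM).

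Mitochondrial share, a sign of cell quality, moved with several of the genes. Over deep barcodes with under 5%, 5 to 10%, 10 to 20% and, outside the deep set, over 20% mitochondrial UMIs, Fos measured 363, 501, 345 and 249 CPM in WT, 589, 725, 714 and 451 in LApc and 568, 620, 495 and 342 in LApcL. Jun in WT ran from 1160 through 1287 and 1296 to 1533 CPM. Divided by UMIs outside mitochondrial genes, Fos was 373, 548, 397 and 388 per 1000000 in WT, 613, 778, 823 and 660 in LApc and 591, 665, 572 and 478 in LApcL. By CPM it was lowest over 20% in all 3 libraries, but on this scale only in LApcL. Jun in WT was 1192, 1406, 1488 and 2383. Hspa1a in LApc was 10.7, 21.4, 32.6 and 43.7 per 1000000 on this scale, and 20.6, 34.1, 27.9 and 54.5 in LApcL. Within each of the 3 bins up to 20%, Fos was lower in WT than in LApc, and Jun was higher in WT than in LApcL. The order of Jun in WT and LApc was not the same in each bin, with 1160 and 1328 CPM under 5% but 1287 and 1046 CPM at 5 to 10%, and Atf3 measured 874 CPM in WT and 860 in LApc at 10 to 20%. The lowest WT bin held only 87 barcodes.

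**Figure D4:**
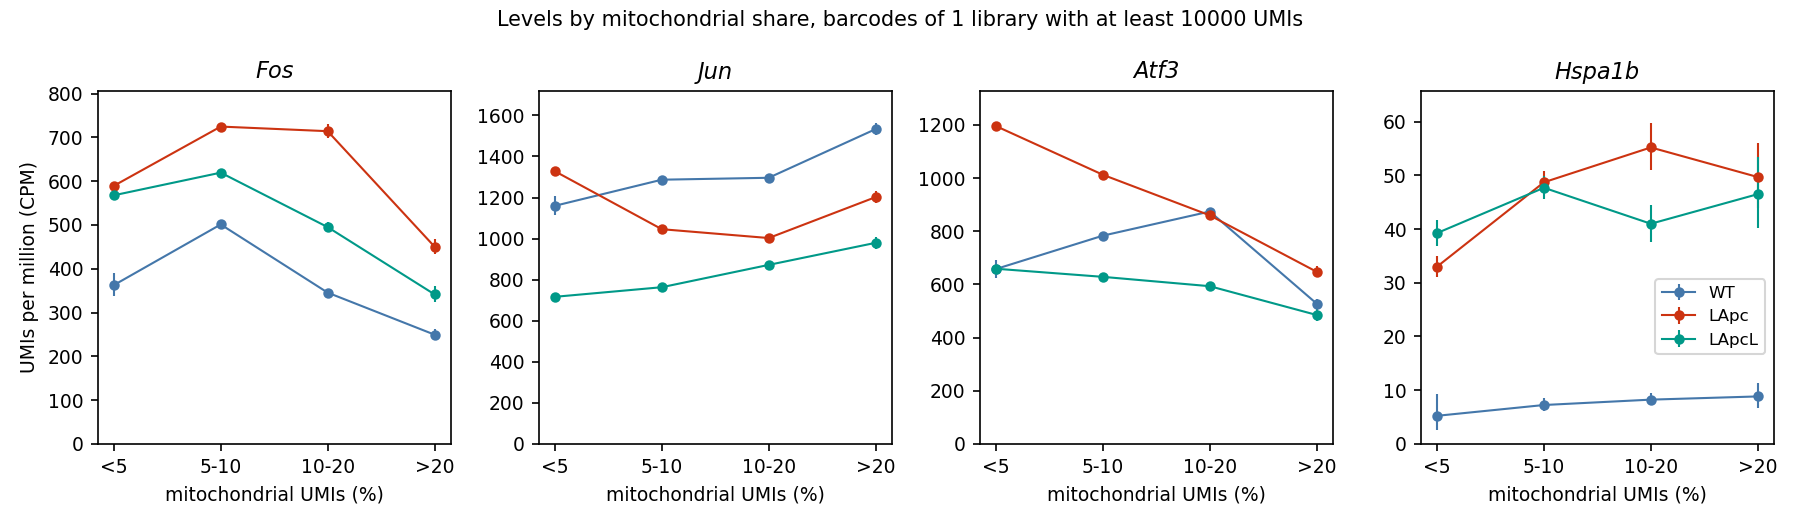
CPM of Fos, Jun, Atf3 and Hspa1b in WT, LApc and LApcL by share of mitochondrial UMIs (%), for barcodes of 1 library with at least 10000 UMIs, with exact 95% Poisson intervals and axes from 0. Fos is lowest over 20% in every library (249, 451 and 342 CPM), which holds only in LApcL when mitochondrial UMIs are left out of the division, whereas Jun in WT is at its highest there (1533 CPM).

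The barcodes shared by all 3 libraries gave a very different profile. Fos measured 2935, 2954 and 2920 CPM in the WT, LApc and LApcL copies, Fosb 2179, 2239 and 2221, Jun 2852, 2832 and 2846, Junb 2605, 2572 and 2556, and Egr1 2364, 2364 and 2411. Jund was at 1636, 1626 and 1646 CPM, Ier2 at 913, 907 and 914, and Atf3 at 852, 848 and 852. Hspa1a was at 45.1, 45.7 and 41.2 CPM and Hspa1b at 22.6, 23.9 and 20.1. The 3 copies were nearly equal for each gene: the highest library was a median of 1.02 times the lowest over the 10 genes (at most 1.19). Over 8012 genes the median was 1.08 times and the highest 1.82 times. In deep barcodes the median was 1.66 times over the 10 genes (1.14 to 5.68) and 1.64 times over all 6532 genes compared. Between shared copies the log2 ratios ran from -0.02 to 0.08 for LApc against WT and from -0.25 to 0.03 for LApcL against LApc, so that genotype differences like those of the epithelium were not detectable in them. Barcode by barcode, as a description, the UMI totals of the shared copies correlated between libraries at an r of 0.990 to 0.992 (n = 3195), Fos UMIs at 0.575 to 0.599, Jun at 0.512 to 0.537, Hspa1a at 0.321 to 0.327 and Hspa1b at 0.128 to 0.247.

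Against the deep barcodes of the same library, Fosb stood furthest apart, 21.6-fold higher in the WT copy, 13.2-fold in LApc and 13.8-fold in LApcL. Fos was 7.20-fold, 4.41-fold and 5.02-fold higher, and the Fosb to Fos ratio in UMIs was 0.742 to 0.761 in shared and 0.247 to 0.277 in deep barcodes. On the log2 scale Junb was at 2.60, 2.12 and 2.75, Egr1 at 2.30, 1.71 and 1.89, Jund at 1.46, 1.34 and 1.55, Jun at 1.15, 1.30 and 1.89 and Ier2 at 1.21, 0.74 and 1.22. Atf3 differed least between the sets and in no common direction, at 0.04 in WT, -0.33 in LApc (-0.37 to -0.29) and 0.43 in LApcL (0.39 to 0.47). Its WT value turned to -0.13 under median-of-ratios scaling. The Hsp70 genes parted: Hspa1a was higher in shared barcodes in each library (2.89, 1.41 and 0.63), whereas Hspa1b was higher in WT (1.55) and lower in LApc (-0.86) and LApcL (-1.12). Hspa1b per Hspa1a UMI was 0.488 to 0.524 in shared barcodes, under the 1.27 to 2.52 of the epithelium.

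Of the 10 genes, 9 were at least 2-fold higher in shared barcodes of WT and 0 lower, where 34.5% of 9701 genes were higher and 20.7% lower. The counts were 7 higher and 0 lower in LApc, where 23.1% of 10011 genes were higher and 25.7% lower, and 7 higher and 1 lower (Hspa1b) in LApcL, where 23.9% were higher and 26.9% lower. With median-of-ratios scaling they were 8, 7 and 7 higher and 0 lower, where 31.7%, 25.7% and 27.0% of all genes were higher and 23.4%, 21.2% and 22.1% lower. The median log2 ratio of the 10 genes was 1.93, 1.37 and 1.72, beside 0.35, -0.22 and -0.23 for all genes. These 3 comparisons share 1 set of barcodes and are not independent, and cell type and whatever made the barcodes recur cannot be told apart in them. For Fos and Fosb a gap remained at like depth: WT barcodes of 1 library under 10000 UMIs (at most 20% mitochondrial; median 3065.5 UMIs) held 405 CPM of Fos and 182 of Fosb, against 2935 and 2179 in the shared copy (median 2176 UMIs).

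Thinned to 500 UMIs, which left no barcode out, 60.8% to 62.2% of shared barcodes held a UMI of Fos and 57.9% to 58.9% one of Fosb, whereas 16.5%, 24.3% and 22.0% of deep barcodes held Fos and 5.96%, 7.27% and 7.77% held Fosb. Jun was in 63.9%, 63.3% and 63.6% of shared and 41.6%, 39.1% and 27.9% of deep barcodes. Atf3 was in 28.5%, 28.2% and 28.5% of shared and 30.7%, 34.4% and 23.0% of deep barcodes, so that its order differed between libraries. Hspa1a was in 2.82%, 2.50% and 2.28% of shared and 0.248%, 0.879% and 0.984% of deep barcodes, and Hspa1b in 1.35%, 1.47% and 1.06% against 0.248%, 2.41% and 2.12%. For background, Pecam1 was in 0 of 1208 WT deep barcodes, which allows a share of up to 0.248%, and in 0.139% and 0.0518% of LApc and LApcL, but in 38.2% to 39.4% of shared barcodes. Epcam was in 41.8%, 51.9% and 63.3% of deep and 0.0626% to 0.438% of shared barcodes. The WT deep shares of the Hsp70 genes thus sat within what a count of 0 allows and carry no information at this depth. Unthinned, Fos was in 85.4%, 81.4% and 81.0% of shared barcodes and Fosb in 86.6%, 82.3% and 83.7%.

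**Figure D5:**
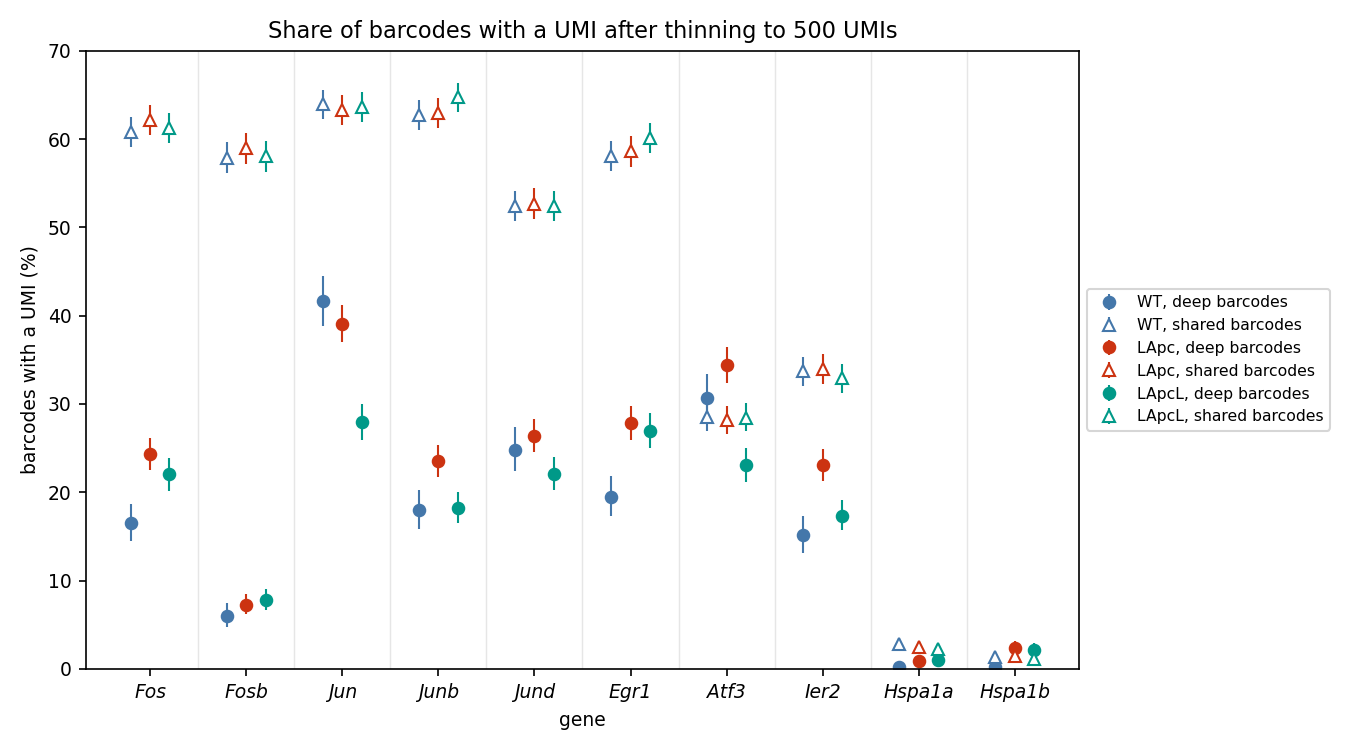
Share of barcodes (%) with at least 1 UMI of each gene after thinning every barcode to 500 UMIs, filled circles for deep and open triangles for shared barcodes of WT, LApc and LApcL, with exact 95% binomial intervals. For Fosb the shared barcodes sit at 57.9% to 58.9% and the deep at 5.96% to 7.77%, whereas for Atf3 they sit at 28.2% to 28.5% and 23.0% to 34.4%.

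Within the shared barcodes (clustered on the sum of the 3 copies) the genes did not move as 1 block. The lymphatic endothelial-like cluster (393 barcodes) had the highest Fosb of all, 3492 CPM (3422 to 3563), with the lowest Fos (1919) and Ier2 (283) and with Hspa1a at 2.21 CPM. High endothelial venule-like cells (661) had 1963 CPM of Fos, 1279 of Fosb and 11.6 of Hspa1a. The largest cluster, led by Rbp7, Igfbp3 and Rgcc (1177), had 3626 CPM of Fos, the highest Ier2 (1561) and 89.5 of Hspa1a. A small cluster led by Igfbp5, Nsg1 and Fxyd2 (125) had the highest Fos and Jun (4504 and 4945 CPM), and one led by Mgp, Stmn2 and Gkn3 (75) the highest Hspa1a (530 CPM, 452 to 619), Atf3 (2236) and Hspa1b (88.4). In that cluster the 3 copies read 561, 584 and 439 CPM of Hspa1a. The cluster led by Col3a1, Rgs5 and Acta2 (23) had the highest Junb (4940 CPM).

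Further lists place these genes among their relatives. Of 28 other AP-1 and immediate early genes, 27 passed 10 CPM in LApc or WT, and 8 were at least 2-fold higher and 2 lower in LApc, beside 25.8% and 10.2% of all genes. The list's median log2 ratio was 0.62, against 0.52 for all genes. Furthest up were Ier3 (a regulator of apoptosis; 297 against 20.0 CPM), Ccn2 (a matrix protein; log2 3.82) and Nr4a1 (a nuclear receptor; log2 2.84), and the 2 lower were Gadd45a (a p53 target; log2 -2.29) and Fosl2 (a Fos relative; log2 -1.02). Between LApcL and LApc, 0 were at least 2-fold higher and 4 lower: Klf2 (-2.26), Egr3 (-1.53), Rhob (-1.09) and Nr4a1 (-1.05), beside 1.46% and 3.48% of all genes, with a list median of -0.38 on the log2 scale. In shared against deep barcodes 21, 19 and 21 of 28 were at least 2-fold higher in WT, LApc and LApcL and 4, 3 and 2 lower, beside 34.5%, 23.1% and 23.9% of all genes higher and 20.7%, 25.7% and 26.9% lower. The list's medians were 2.12, 1.46 and 2.04. Dusp2, a phosphatase that turns off ERK, was highest there (7.81, 8.19 and 8.41), on only 27, 38 and 30 UMIs in the deep barcodes. The lowest were Gadd45a in WT and LApc (-3.90 and -1.77) and Ccn2 in LApcL (-1.58).

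Of 24 other heat shock genes and co-chaperones, 11 were at least 2-fold higher in LApc than in WT and 0 lower, beside the same 25.8% and 10.2% of all genes, with a median log2 ratio of 0.82. The small heat shock proteins led, Cryab at 118 against 0.348 CPM, Hspb8 at a log2 ratio of 7.29 (6.24 to 8.61) and Hspb1 at 6.20 (5.85 to 6.58). Their WT counts were near the floor, at 17, 7 and 65 UMIs, so the size of these ratios is uncertain. Between LApcL and LApc 0 were at least 2-fold higher and 0 lower, beside 1.46% and 3.48% of all genes, with a median of 0.00 against 0.05. In shared against deep barcodes 6 of 21, 3 of 24 and 3 of 24 were at least 2-fold higher (all genes 34.5%, 23.1% and 23.9%) and 5, 10 and 11 lower (20.7%, 25.7% and 26.9%), with Hspb1 higher (8.89, 2.66 and 3.12) and the mitochondrial chaperone Hspd1 lower (-2.61, -2.50 and -2.97). Cryab was the lowest of the list in LApc and LApcL (-4.65 and -3.82). The list's medians were 0.13, -0.81 and -0.82, beside 0.35, -0.22 and -0.23 for all genes.

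Of 12 genes of the integrated stress response, the pathway through which Atf4 adjusts translation and amino acid supply, 1 was at least 2-fold higher in LApc than in WT (Hspa13, log2 1.25) and 5 lower, beside 25.8% and 10.2% of all genes, with a median of -0.47 against 0.52. Trib3 (-3.07), Chac1 (-2.63) and Atf5 (-1.97) were the lowest. Between LApcL and LApc, 0 of 10 were at least 2-fold higher and 1 lower (Ddit3, -1.14), beside 1.46% and 3.48% of all genes, with a median of -0.50 against 0.05 for all genes. In shared against deep barcodes 2 of 12, 2 of 10 and 5 of 10 were at least 2-fold higher and 4, 2 and 1 lower, with the all-gene shares as above, led by Ppp1r15a (2.96, 2.17 and 2.87), which undoes the translation block, with Asns (asparagine synthesis) at -3.06, -2.30 and -1.68. These counts per list are descriptions of 1 library per genotype.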

How the data were processed

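Single-cell RNA was captured with a 3′ droplet kit from 3 organoid libraries, 1 per genotype. The authors aligned reads to mm10 (GRCm38) and deposited whole-number UMI counts per gene and barcode (file headers name Cell Ranger 6.0.1, the processing notes 2.1.1), so no barcode under 500 UMIs was seen. Counts were summed per barcode set and divided by all UMIs to give CPM (not divided by length, so levels are compared within a gene). Genes with at least 10 CPM in either set formed the background, with at least 2-fold as the call. Barcodes of exactly 2 libraries (50 to 116) were left out. Thinning used seed 1, and doublets were neither called nor removed. Clusters came from scanpy 1.11.5 at resolution 0.5 with 2000 genes and 20 components, and statistics from numpy 2.4.6 and scipy 1.17.1 under Python 3.11.15. The scripts were tested on simulated data. Deep barcodes held 56.1% to 76.4% of a library's 87185429 to 118867221 UMIs. The genes and lists were chosen with earlier results of these data known. All 10 genes are named, and of other lists the 3 highest and 3 lowest past 2-fold, or fewer. Alternatives changed scaling, barcode filters, depth, pseudocount and cell kinds.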

Additional observations from a re-analysis of the deposited data

How the results depend on the processing

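The medians over the 10 genes were recomputed under each alternative, with 1 choice changed at a time. For LApc against WT (log2 0.53) the median was 0.46 with division by UMIs outside mitochondrial genes, 0.12 with median-of-ratios size factors, 0.50 at no more than 10% mitochondrial UMIs, 0.56 with no such limit, 0.37 without enterocyte marker UMIs and 0.80 in proliferating-like clusters alone. For LApcL against LApc (-0.20) it was -0.18 with every barcode weighing the same, -0.25 with median-of-ratios, -0.18 at no more than 10% mitochondrial UMIs, -0.025 in proliferating-like clusters, -0.27 with the LApcL cluster led by Slfn9 added to them, and -0.23 without the LApc cluster led by Npy. For shared against deep barcodes (1.55 over genes and libraries) it was 1.87 with equal weights and 1.80 after thinning to 500 UMIs. The median share in deep barcodes (89.7% at 10000 UMIs) was 77.2% at 5000, 20.7% at 500 and 97.4% unthinned, and in shared barcodes (55.3% at 500) 74.4% at 1000 UMIs, which left out 360 to 924 barcodes, and 81.4% unthinned. These shares depend on depth, and the one at 1000 UMIs changed the barcodes kept as well as the depth. Of the values of single genes, 245 stayed within the counting interval, 226 moved past it and 9 turned sign. The last were, for LApc against WT, Jun at 0.15 (no enterocyte marker UMIs) and, with median-of-ratios, Jund at -0.29 and Atf3 at -0.045. For LApcL against LApc they were Fosb at 0.0012 (equal weights) and, in proliferating-like clusters, Fosb at 0.20, Jun at 0.18 and Egr1 at 0.039, and with the Slfn9 cluster, whose DNA replication genes the LApcL proliferating-like cluster lacks among its leading genes, Egr1 at 0.011. For shared against deep in WT it was Atf3 at -0.13 (median-of-ratios). Hspa1b between LApcL and LApc, whose interval spans 0, ran from -0.32 (with the Slfn9 cluster) to 0.17 and is not counted among the 9. The cause was not tested. Hspa1a and Hspa1b kept their direction between LApc and WT in all 16 alternatives (0.76 to 3.05 and 1.59 to 3.47), but not Hspa1a in every depth bin (9.85 CPM in WT and 8.97 in LApc at 10000 to 20000 UMIs, 15.9 and 12.1 under 10000). With no CPM minimum, 34.1% and 20.2% of all genes were at least 2-fold higher and lower in LApc than in WT, and 10.8% and 20.1% in LApcL against LApc. The proliferating-like, Slfn9, Lars2, Npy and shared median-of-ratios alternatives were chosen after seeing the data. No paired analysis was possible because each group has 1 library.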

Other observations

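Barcodes that entered neither set also held these transcripts. In barcodes of 1 library with under 10000 UMIs and at most 20% mitochondrial UMIs, Jun measured 2004, 1083 and 758 CPM for WT, LApc and LApcL, beside 1287, 1152 and 766 CPM in the deep barcodes, so that Jun was higher in the shallower barcodes in WT alone. In the same barcodes Hspa1a measured 15.9, 12.1 and 8.11 CPM, beside 6.07, 17.2 and 26.6 in the deep barcodes, so that WT was the highest library and not the lowest, and Hspa1b measured 17.1, 35.1 and 24.8 CPM, beside 7.71, 43.3 and 43.8.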
